A study of Mus musculus with 3 samples.

Results

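The genes described here are 10 chosen by symbol: the cadherin genes Cdh1, Cdh2, Cdh3 and Cdh11, the epithelial surface gene Epcam, and the transcription factor genes Snai1, Snai2, Zeb1, Zeb2 and Twist1. They were found by Entrez Gene identifier among 17209 genes listed in the tables. All 10 were listed in every library and passed the filter used here, an average level over the libraries of 1 CPM or more (counts scaled to library size), which 12955 genes passed. The RNA was that of mouse EpiSCs of strain 129. These are stem cells of the kind derived from the post-implantation epiblast, and they were kept on gelatin in serum with both IWR1 and Y27 (Y27632). The IWR1 library came from cells given 2 µM IWR1 for 12 h, an inhibitor of tankyrases that stabilises Axin and so dampens Wnt signalling. The Y27 library came from cells given 0.5 µM Y27 for 12 h, an inhibitor that lowers actomyosin contraction, at a dose given as labelled. The NT library came from cells from which both inhibitors had been withdrawn overnight, so differences between a treated library and NT combine treatment with withdrawal. Each group was 1 library, with no replicate, so no difference below could be tested and no p-value is given.

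Cadherins join neighbouring cells through their outer domains and bind catenins inside the cell. E-cadherin, encoded by Cdh1, holds epithelia such as the epiblast together, and N-cadherin, encoded by Cdh2, is typical of mesoderm and neural tissue. At the primitive streak epiblast cells undergo an epithelial-mesenchymal transition (EMT). Factors of the Snail, Zeb and Twist families can lower Cdh1 in transitions of this kind. Snail and Zeb proteins are zinc finger repressors that bind the E-box CACCTG, and Snai1 is required for the EMT at the streak in the mouse embryo.

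Promoter sequence was at hand for Epcam, Snai1, Zeb2 and Twist1, from RefSeq on GRCm38.p6. The 250 bases before the start sites of Epcam and Snai1 are shown because both held the CACCTG box that Snail and Zeb proteins bind, read on either strand (CACCTG or CAGGTG) and written in capitals. The Epcam window is chr17:87635729-87635978 and the Snai1 window chr2:167537945-167538194, both on the plus strand.
Epcam: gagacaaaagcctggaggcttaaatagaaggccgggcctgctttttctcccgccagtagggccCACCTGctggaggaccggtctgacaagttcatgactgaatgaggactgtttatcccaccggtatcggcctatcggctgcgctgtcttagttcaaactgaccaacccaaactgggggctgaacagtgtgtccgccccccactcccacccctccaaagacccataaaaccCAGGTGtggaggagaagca
Snai1: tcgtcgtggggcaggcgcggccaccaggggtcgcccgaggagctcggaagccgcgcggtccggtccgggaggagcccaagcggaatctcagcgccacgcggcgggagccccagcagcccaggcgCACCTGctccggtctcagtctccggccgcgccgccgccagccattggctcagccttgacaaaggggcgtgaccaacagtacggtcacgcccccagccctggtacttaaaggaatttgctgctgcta
Epcam had 2 such boxes, beginning at positions -187 and -19 from the start site, and Snai1 had 1, at position -126. The windows of Twist1 and of all 4 Zeb2 start sites had 0. Of 32851 promoter windows of this length, 17.2% held the box at least once and 2.06% at least 2 times. The looser E-box CANNTG, which includes CACCTG, was in 66.2% of windows, and its only matches in those of Epcam and Snai1 were the boxes shown. A match is a string of letters and was not tested as a binding site.

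The summed counts were 5607725 in IWR1, 5459332 in Y27 and 5767550 in NT. All 8 EpiSC markers, among them Pou5f1, Nanog and Fgf5, were above 1 CPM in every library. Of 5 neural markers, 0 passed 1 CPM in IWR1, 1 in Y27 and 1 in NT. Ranges in brackets are exact 95% intervals, and they cover counting error only. A log2 difference is taken after adding 1 CPM to each level, so it shrinks the differences of low genes, and the 2-fold threshold is set on it. Fold values are ratios of scaled counts with nothing added. Partly fractional counts were rounded first, so folds of such genes can differ from the ratio of the CPM given. In bulk RNA, fewer cells of a type and less RNA per cell cannot be told apart. Over all genes the differences from NT followed transcript length. From the shortest to the longest of 10 length classes the median log2 difference ran from -0.15 to 0.22 in IWR1 over NT and from -0.23 to 0.33 in Y27 over NT, and values with this trend removed are given below for most of the 10 genes.

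On the scale of deposited FPKM, which is per transcript length, the epithelial genes stood first in every library. Epcam was at 138, 93.5 and 96.4 FPKM in IWR1, Y27 and NT, and Cdh1 at 113, 67.8 and 94.5 FPKM. The intervals of these genes overlapped in NT but not in IWR1 or Y27. In each library at least 92.9% of listed genes had a lower FPKM than either of them. Cdh2 was next in each library, at 24.8, 44.1 and 41.1 FPKM.

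Below the cadherin pair the order of the factors differed between the libraries. In NT, Snai1 at 10.3 FPKM (8.30 to 12.5) stood above Zeb2 at 7.58 FPKM (6.85 to 8.37), their intervals overlapping slightly. In IWR1, Zeb2 at 16.2 FPKM stood above Snai1 at 3.56 FPKM, and in Y27 Zeb2 at 19.9 FPKM stood above Snai1 at 10.2 FPKM, without overlap in either. Cdh3, which encodes P-cadherin, was at 5.70, 4.60 and 5.75 FPKM in IWR1, Y27 and NT. Its interval overlapped that of Snai1 in IWR1 and those of Cdh11 and Zeb1 in Y27. Zeb1 at 2.49, 3.46 and 2.69 FPKM and Cdh11 at 2.13, 4.77 and 2.03 FPKM had overlapping intervals in each library. Snai2 and Twist1 stood last, at 0.29 to 1.06 and 0.33 to 1.15 FPKM, with overlapping intervals in each library. The lowest of these values rested on 3.43 counts of Snai2 in IWR1 and 3 counts of Twist1 in Y27.

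**Figure D1:**
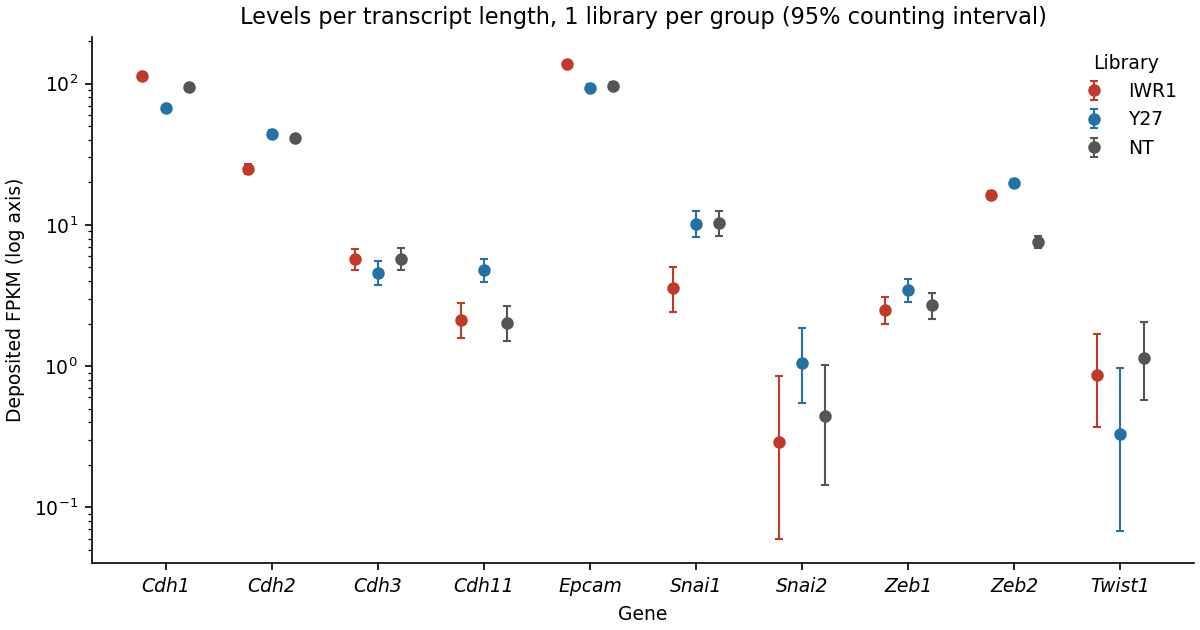
Deposited FPKM (log axis) of the 10 genes in the IWR1, Y27 and NT libraries, 1 library each, with bars for the exact 95% counting interval. Epcam and Cdh1 lie highest in every library, the Snai1 level is lower in IWR1, at 3.56 FPKM, than in the other libraries, and the Zeb2 level is lower in NT, at 7.58 FPKM, than in the others.

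The first comparison, IWR1 over NT, asked how these transcripts stood under tankyrase inhibition. Snai1 (Entrez Gene 20613) was 2.94-fold lower (1.95 to 4.54) in IWR1, and Cdh2 was 1.69-fold lower (1.53 to 1.86). Cdh1 was 1.17-fold higher (1.11 to 1.24) and Epcam 1.41-fold higher (1.31 to 1.52). Zeb2, a repressor of Cdh1 like Snai1, was 2.10-fold higher (1.86 to 2.37), and its log2 difference of 1.06 was 0.39 after removal of the trend on transcript length and GC content. Of the 10 genes, 1 was at least 2-fold higher and 1 at least 2-fold lower, Zeb2 and Snai1. Of all 12955 genes, 2.29% passed 2-fold upwards and 2.25% downwards, 4.55% in all. The median log2 difference was -0.08 over the 10 genes and -0.00 over all genes.

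Snai1 had 32 counts in IWR1, 89 in Y27 and 95 in NT, which is 5.72, 15.9 and 16.8 CPM. The IWR1 library stood apart from the other two, whose intervals overlapped. The log2 difference of IWR1 over NT was -1.41 as counted and -1.23 after removal of the trend on length and GC content, and 0.934% of the genes compared had a more negative one. Nascent mesoderm markers moved alongside, and their part in the result was not tested. Their summed level was 374 CPM in IWR1, 1781 CPM in Y27 and 1809 CPM in NT over 6 genes, most of it from T. Mixl1 was at 0, 8.42 and 10.8 CPM in IWR1, Y27 and NT. Mesp1 was also at 0 in IWR1 only, but it was low in the others, at 0.179 CPM in Y27 and 0.708 CPM in NT.

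Cdh2 had 652 counts in IWR1, 1129 in Y27 and 1113 in NT. At 116, 202 and 197 CPM it too was low in IWR1 alone. Its log2 difference of IWR1 over NT was -0.75, short of 2-fold, and 4.01% of genes had a more negative one. Cdh1 had 2814, 1646 and 2428 counts in IWR1, Y27 and NT. At 503, 295 and 429.5 CPM it was highest in IWR1 and lowest in Y27, with no overlap of intervals. Epcam, a homotypic adhesion molecule of epithelial and pluripotent cells, had 1599, 1051 and 1146 counts. At 286, 188 and 203 CPM it was high in IWR1, while the intervals of the Y27 and NT values overlapped. Its log2 difference of IWR1 over NT was 0.49, and 0.60 with the trend removed. EpiSC markers summed to 3103 CPM in IWR1, 2227 CPM in Y27 and 2519 CPM in NT over 8 genes. These sums stood in the order of Cdh1 and Epcam, but single markers differed from it. Dnmt3b was at 750.3, 426 and 379 CPM and Fgf5 at 68.1, 29.9 and 20.7 CPM in IWR1, Y27 and NT. Sox2 and Otx2 were likewise higher in Y27 than in NT, whereas Cdh1 was lower. Utf1, at 226, 84.2 and 97.1 CPM, and Pou3f1 had the order of Cdh1. Pou5f1, at 1318, 1163 and 1462 CPM, and Nanog, at 187, 209 and 245 CPM, were highest in NT. The part of these markers in the Cdh1 and Epcam values was not tested.

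The balance of Cdh1 and Cdh2 within a library needs no scaling between libraries. Cdh1 made up 81.2% (79.8 to 82.5) of the counts of the pair in IWR1, 59.3% (57.5 to 61.2) in Y27 and 68.6% (67.0 to 70.1) in NT. The 3 intervals did not overlap, with the treated libraries on opposite sides of NT. As a ratio of FPKM, Cdh1 stood to Cdh2 at 4.55 in IWR1, 1.54 in Y27 and 2.30 in NT. The ratio of counts was 1.98 times as high in IWR1 as in NT (1.77 to 2.21), and in Y27 it was 0.668 times that in NT (0.602 to 0.742). In IWR1 it was 2.96 times as high as in Y27 (2.64 to 3.32). The transcripts are of similar length, 4413 and 4646 bases, and GC content, 50.7% and 49.5%. On the log2 scale the difference of Cdh1 less that of Cdh2 was 0.98 for IWR1 over NT and -0.58 for Y27 over NT, and 1.02 and -0.52 with the length and GC trend removed.

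**Figure D2:**
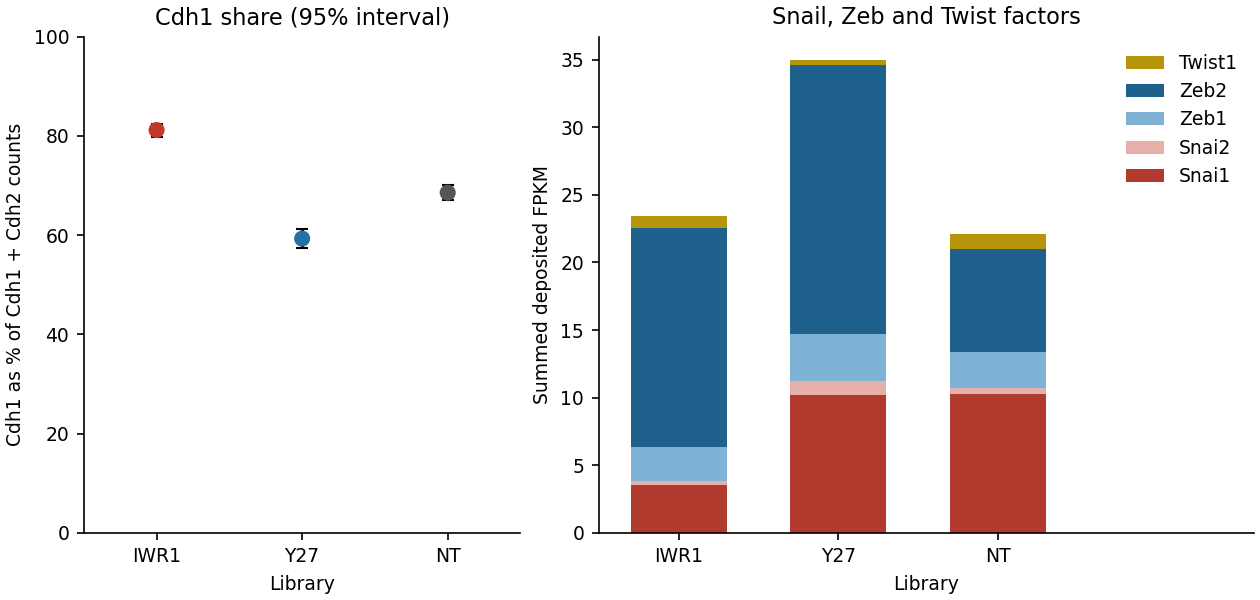
Left, Cdh1 as a percentage of the counts of Cdh1 and Cdh2 in each library, with exact 95% binomial intervals. Right, deposited FPKM of the Snail, Zeb and Twist factors stacked per library. The Cdh1 share was 81.2% in IWR1, 59.3% in Y27 and 68.6% in NT, and Zeb2 made up 69.3%, 57.0% and 34.3% of the summed factor FPKM.

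In the same comparison Cdh3 was at 23.2 CPM in IWR1 and 23.9 CPM in NT, a log2 difference of -0.04. Cdh11, a cadherin of mesenchymal cells, was at 9.09 CPM in IWR1 and 8.80 CPM in NT, and its log2 difference of 0.04 turned to -0.18 with the trend removed. Zeb1 was at 14.6 CPM in IWR1 and 16.1 CPM in NT, and its log2 difference of -0.13 was -0.36 with the trend removed. Twist1, a basic helix-loop-helix factor of mesoderm, had 8 counts in IWR1 and 11 in NT, 1.36-fold lower (0.499 to 3.90). Snai2, which encodes the Snail relative Slug, had 3.43 counts in IWR1 and 5.32 in NT, 1.65-fold lower (0.321 to 10.6). The log2 differences of Twist1 and Snai2, -0.28 and -0.27, were -0.11 and -0.47 with the trend removed. The folds of Zeb1, Twist1 and Snai2 all had intervals that included equality, and those of Twist1 and Snai2 are too wide to show a small difference.

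The second comparison, Y27 over NT, asked the same under Y27. Zeb2 (Entrez Gene 24136) was 2.52-fold higher (2.24 to 2.84) and Cdh11 2.25-fold higher (1.60 to 3.21) in Y27, and neither passed 2-fold after removal of the trend on length and GC content. Cdh1 was 1.46-fold lower (1.37 to 1.55), and Cdh3 was 1.31-fold lower (1.00 to 1.71). Of the 10 genes, 2 were at least 2-fold higher and 0 at least 2-fold lower. Of all genes, 5.58% passed 2-fold upwards and 1.34% downwards, 6.92% in all. The median was -0.02 over the 10 genes and -0.02 over all genes.

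The Cdh1 value, a log2 difference of -0.54, was among the lower ones, with 6.89% of genes more negative, and was -0.58 with the trend removed. Cdh2, with a log2 difference of 0.04, and Snai1, with one of -0.07, had folds whose intervals included equality. That of Cdh2 turned to -0.02 under upper quartile scaling and to -0.06 with the trend removed, and that of Snai1 to 0.15 with the trend removed. Epcam had a log2 difference of -0.11, which turned to 0.04 with the trend removed. Its level was 188 CPM in Y27 (177 to 200.1) and 203 CPM in NT (191 to 215), so the intervals overlapped where those of Cdh1 did not.

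Zeb2 had 820 counts in IWR1, 981 in Y27 and 395 in NT, which is 146, 176 and 69.9 CPM. Both treated libraries lay above NT, with no overlap of intervals. These comparisons share the NT library, so a low value there raises both. The Zeb2 transcript, at 8906 bases and 40.6% GC, was longer than 97.2% of the genes compared and had a higher GC content than only 7.39% of them. The trend fitted over all genes at that length and GC content was 0.67 of its log2 difference of 1.06 in IWR1 over NT, and 1.03 of its 1.32 in Y27 over NT. The remainders were 0.39 and 0.29. Among the 1295 longest genes, from 6193 bases up, 4.71% passed 2-fold upwards in IWR1 over NT and 14.4% in Y27 over NT.

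Nuclear RNAs that can mark differences in RNA preparation moved the same way. Malat1 was at 628, 857 and 264 CPM in IWR1, Y27 and NT, and Neat1 at 47.2, 51.8 and 21.9 CPM. Their part in the Zeb2 value was not tested. The antisense gene Zeb2os had 2, 2 and 4 counts in IWR1, Y27 and NT, so it held few reads next to Zeb2. The sources used here do not say whether the counting used strand.

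**Figure D3:**
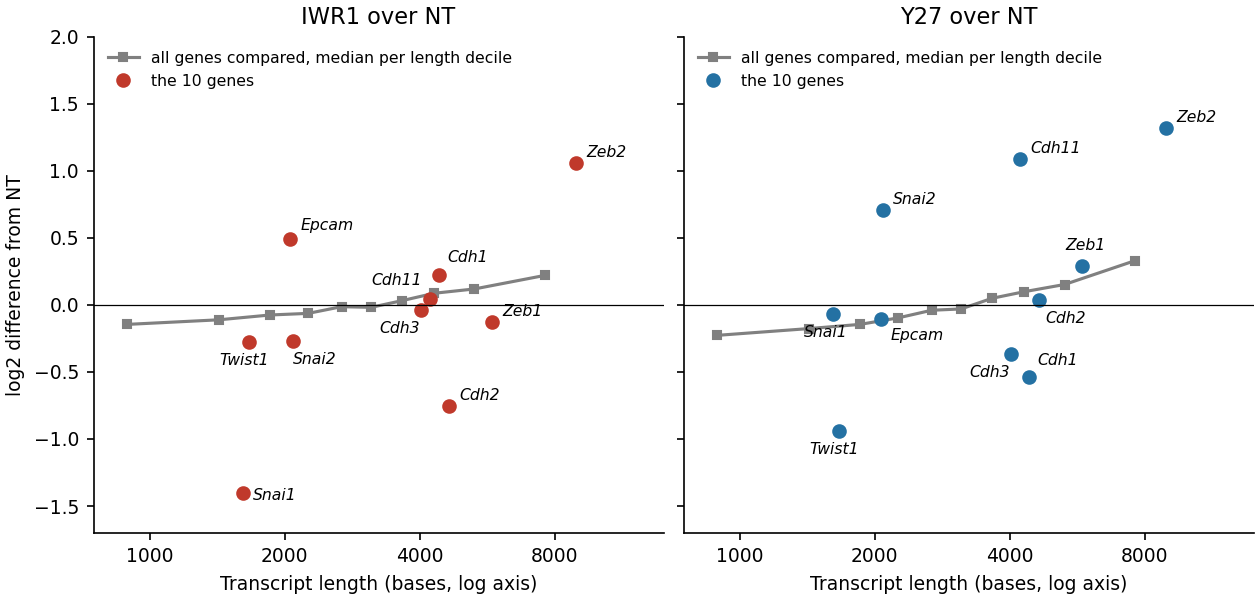
Log2 difference from NT against transcript length (bases, log axis) for the 10 genes, with grey squares for the median of all genes compared in each of 10 length classes of about equal size. Zeb2, the longest at 8906 bases, lies at 1.06 for IWR1 and 1.32 for Y27, where the medians of the longest class are 0.22 and 0.33.

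Cdh11 had 50.9 counts in IWR1, 111 in Y27 and 49.7 in NT. At 9.09, 19.8 and 8.80 CPM only the Y27 library was high, with no overlap of intervals. Its log2 difference of Y27 over NT was 1.09. It was 0.85 with a pseudocount of 5 CPM, 0.93 on deposited FPKM and 0.76 with the trend removed. The counts of Cdh11, Zeb1 and Snai2 were partly fractional, so they are estimates rather than whole reads and are less certain. The source of the fractions was not tested. The other 7 genes had whole counts in every library.

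Twist1, at 1.43, 0.538 and 1.95 CPM, had 3 counts in Y27 against 11 in NT, a ratio of 0.276 (0.0495 to 1.05). Snai2, at 0.613, 2.17 and 0.941 CPM, had 12.1 counts in Y27 against 5.32 in NT. Neither difference was detectable at this depth. Snai2 passed the filter only through its Y27 value, so its difference of Y27 over NT is also not independent of the filter. Zeb1 was at 19.9 CPM in Y27 and 16.1 CPM in NT, 1.24-fold higher (0.928 to 1.65), and its log2 difference was 0.29 as counted and -0.06 after removal of the trend.

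**Figure D4:**
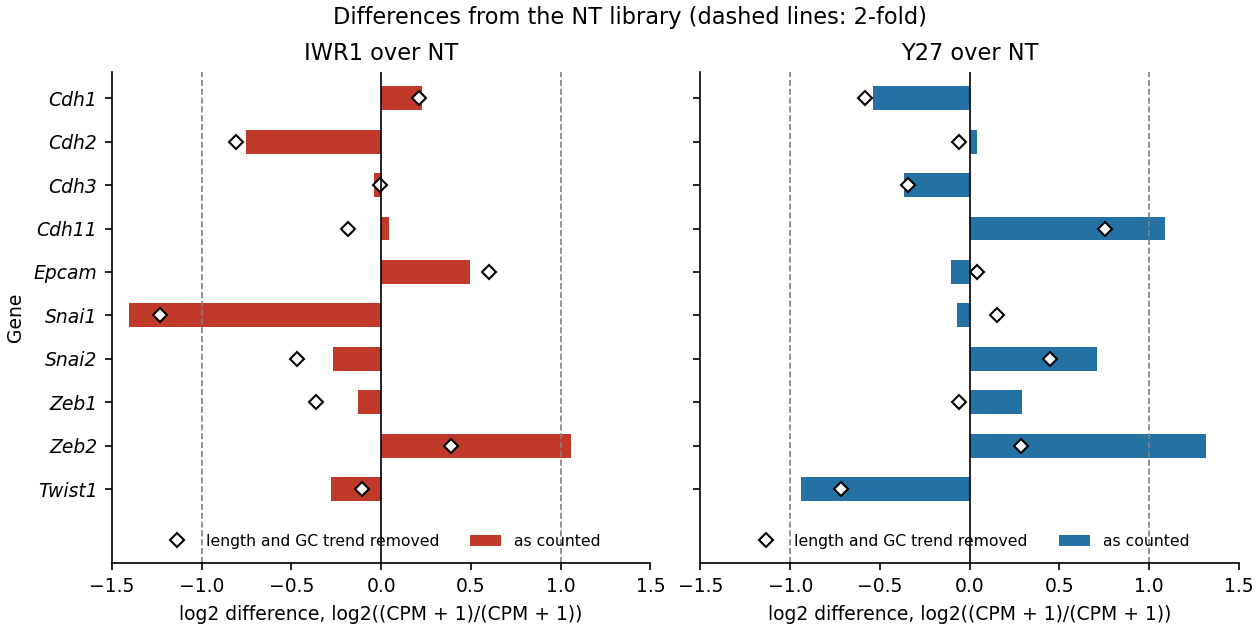
Log2 difference of each of the 10 genes from the NT library, for IWR1 (left) and Y27 (right), as counted (bars) and with the trend on transcript length and GC content removed (diamonds). Dashed lines mark 2-fold. Snai1 in IWR1 stays past 2-fold at -1.23 with the trend removed, and Zeb2 does not, at 0.39 in IWR1 and 0.29 in Y27.

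Set against each other, the factors shifted in their proportions. Snai1 made up 3.76% (2.58 to 5.26) of the summed counts of Snai1 and Zeb2 in IWR1, 8.32% (6.73 to 10.1) in Y27 and 19.4% (16.0 to 23.2) in NT. The shares did not overlap. The length and GC trend on Zeb2 enters each of these contrasts with NT. The summed FPKM of the 5 factors was 23.4 in IWR1, 35.0 in Y27 and 22.1 in NT. Of these sums Zeb2 made up 16.2, 19.9 and 7.58 FPKM and Snai1 3.56, 10.2 and 10.3 FPKM. The trend on Zeb2 therefore enters the sums too. The summed FPKM of the 4 cadherins was 145, 121 and 143 in IWR1, Y27 and NT.

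The third comparison, IWR1 over Y27, set the treated libraries beside each other. The NT levels are not part of its differences, but NT enters the filter and the scaling factors. Cdh1 was 1.70-fold higher in IWR1 (1.60 to 1.81) and Epcam 1.52-fold higher (1.40 to 1.64). Only 2.71% of genes had a more positive log2 difference than that of Cdh1, 0.77, and 4.85% a more positive one than that of Epcam, 0.60. Snai1 was 2.79-fold lower (1.84 to 4.32), Cdh11 2.18-fold lower (1.55 to 3.11) and Cdh2 1.74-fold lower (1.58 to 1.92). Snai2, on 3.43 counts in IWR1 and 12.1 in Y27, was 4.01-fold lower (1.08 to 22.2). Zeb1 was 1.36-fold lower (1.01 to 1.83), and both genes had partly fractional counts. Snai2 was at 0.613 CPM in IWR1 and 0.941 CPM in NT. It passed the filter only through Y27, where it was high at 2.17 CPM, so its difference here is not independent of the filter. Twist1, on 8 counts in IWR1 and 3 in Y27, had a ratio of 2.66 (0.638 to 15.6). Of the 10 genes, 0 were at least 2-fold higher and 2 at least 2-fold lower, Snai1 and Cdh11, against 1.38% upwards and 2.90% downwards, or 4.28% in all, among all genes.

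The Snai1 log2 difference of -1.34 was -0.97 with a pseudocount of 5 CPM. That of Cdh11, -1.05, was -0.82 with that pseudocount, -0.88 on deposited FPKM and -0.94 with the trend removed. Zeb2 was 1.20-fold lower in IWR1 (1.09 to 1.32), with a log2 difference of -0.26 as counted and 0.10 after removal of the trend. The median was -0.34 over the 10 genes, against 0.00 over all genes, -0.10 with the trend removed and 0.33 over the 7 genes with whole counts. Its sign thus depended on which genes entered.

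A pattern most like that of a member was sought among genes with a symbol and an average level of 20 CPM or more, by the distance between pairs of log2 differences from NT over the 3 libraries. Nearest to Snai1 were Chst7, a sulfotransferase gene, Pdlim4, a gene of an actin-associated protein, and Elf3, a factor gene of epithelia, at distances of 0.012, 0.031 and 0.047. Within 0.2 of Snai1 lay 6 of 7711 genes. Nearest to Zeb2 were Rsbn1l, Zgrf1 and Mdm4, an inhibitor of p53, at 0.019, 0.028 and 0.030, and 68 of 7710 genes lay within 0.2. Nearest to Cdh11 were Pggt1b, Epha4 and Slc12a2, at 0.14, 0.15 and 0.15. With 3 libraries, close distances of this kind are readily found among so many genes.

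Around these genes 8 lists held 108 genes, of which 92 were compared. Values of these lists are as counted, with the length and GC trend left in. Of all genes, 2.29% passed 2-fold upwards and 2.25% downwards in IWR1 over NT, and 5.58% and 1.34% in Y27 over NT. Of the catenins and partners of cadherins, 0 of 12 passed 2-fold in either comparison with NT. Ctnnb1, which encodes beta-catenin, was at 909, 882 and 868 CPM in IWR1, Y27 and NT. Ctnna1, the alpha-catenin that links to actin, was 1.15-fold lower in IWR1 than in NT (1.09 to 1.20) and 1.32-fold lower in Y27 (1.25 to 1.39). Ctnnd1, which encodes the p120 catenin that keeps cadherins at the surface, was at 445, 431 and 497 CPM. Jup, which encodes plakoglobin, was at 156, 167 and 275 CPM, 1.76-fold lower in IWR1 than in NT (1.62 to 1.91) and 1.65-fold lower in Y27 (1.52 to 1.79). The list's medians were -0.07 in IWR1 over NT and -0.34 in Y27 over NT.

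Of the other classical cadherins, 12 of 14 were listed and 7 compared. In IWR1 over NT 1 passed 2-fold upwards, Cdh22, at 6.79, 1.43 and 2.30 CPM in IWR1, Y27 and NT. It rested on 38 counts in IWR1 and 13 in NT, 2.95-fold higher (1.54 to 6.04). In Y27 over NT 1 passed 2-fold upwards, Cdh10, at 9.65, 15.8 and 6.54 CPM in IWR1, Y27 and NT. It rested on 88 counts in Y27 and 37 in NT, 2.41-fold higher (1.62 to 3.64). Of the partners and processing genes of Epcam, 0 of 6 passed 2-fold in either comparison with NT. All 6 were below NT in Y27, with log2 differences of -0.59 to -0.10 as counted, where 48.2% of all genes lay above NT. How much of this followed transcript length was not tested.

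Other EMT transcription factors had a median of -0.33 in IWR1 over NT and -0.18 in Y27 over NT over 15 genes. In IWR1 over NT 2 passed 2-fold downwards. T, which encodes brachyury of the streak, was at 364, 1652 and 1688 CPM in IWR1, Y27 and NT, and Msx1, a homeobox factor gene, at 1.79, 9.14 and 11.1 CPM. In Y27 over NT 1 did, Snai3, the remaining Snail gene, at 4.82, 1.97 and 6.01 CPM in IWR1, Y27 and NT. Snai3 rested on 11 counts in Y27 and 34 in NT, 3.05-fold lower (1.51 to 6.67).

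Factors known to keep cells epithelial, such as Grhl2, Ovol2 and Esrp1, had 8 members compared. Of these 1 passed 2-fold downwards in IWR1 over NT and 0 in Y27 over NT. It was Elf3, at 10.7, 27.2 and 29.4 CPM in IWR1, Y27 and NT. The medians were -0.32 and -0.51.

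Of 15 mesenchymal and matrix genes compared in Y27 over NT, 6 passed 2-fold downwards, where 1.34% of all genes did. All 15 had a negative log2 difference, of -1.76 to -0.01 with a median of -0.94, where 48.2% of all genes had a positive one. Beyond the contractile genes Acta2 and Tagln, those past 2-fold included Mmp9, Spp1 and Col1a1. Spp1, which encodes osteopontin, was at 60.7, 4.66 and 14.3 CPM in IWR1, Y27 and NT, 4.24-fold higher in IWR1 than in NT (3.32 to 5.47) and 3.07-fold lower in Y27 (1.96 to 4.98). Acta2, on partly fractional counts, was at 75.2, 28.8 and 86.8 CPM, Tagln at 173, 73.1 and 244 CPM and Col1a1 at 54.7, 31.0 and 82.2 CPM.

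Mmp9, a matrix protease gene, is too low for the rule on naming and was named after its values were seen. It was at 3.39, 0.179 and 2.83 CPM, with 1 count behind the Y27 value. In IWR1 over NT 1 of the 15 passed 2-fold upwards, Spp1, and 1 downwards, Fn1, which encodes fibronectin, at 563, 1286 and 1552 CPM. Vim, which encodes vimentin, was at 882, 813 and 1564 CPM, lower in both treated libraries by less than 2-fold. Fibroblast markers summed to 73.6, 62.2 and 121 CPM over 10 genes, with Lum at 0 in every library. Single markers differed from the order of the sums. Pdgfra, at 1.61, 5.74 and 4.78 CPM in IWR1, Y27 and NT, and Pdgfrb, at 1.97, 12.0 and 13.8 CPM, were lowest in IWR1, whereas Col1a1 was lowest in Y27. Col1a1, Col1a2 and Col3a1 are in both lists, and Col1a1 was the largest part of each sum. The part of fibroblast cells in these values was not tested.

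Of 17 genes that set the stability of Snail proteins or act as their corepressors, 1 passed 2-fold, Axin2 in IWR1 over NT. Axin2, a Wnt target which in human cells is known to move a kinase that marks Snail for destruction out of the nucleus, was at 39.5, 167 and 173 CPM in IWR1, Y27 and NT. Gsk3b, Btrc and Ezh2 stayed within 2-fold. Genes of the TGF-beta and FGF inputs to EMT had 0 of 12 past 2-fold in either comparison with NT, with medians of -0.05 and -0.16.

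**Figure D5:**
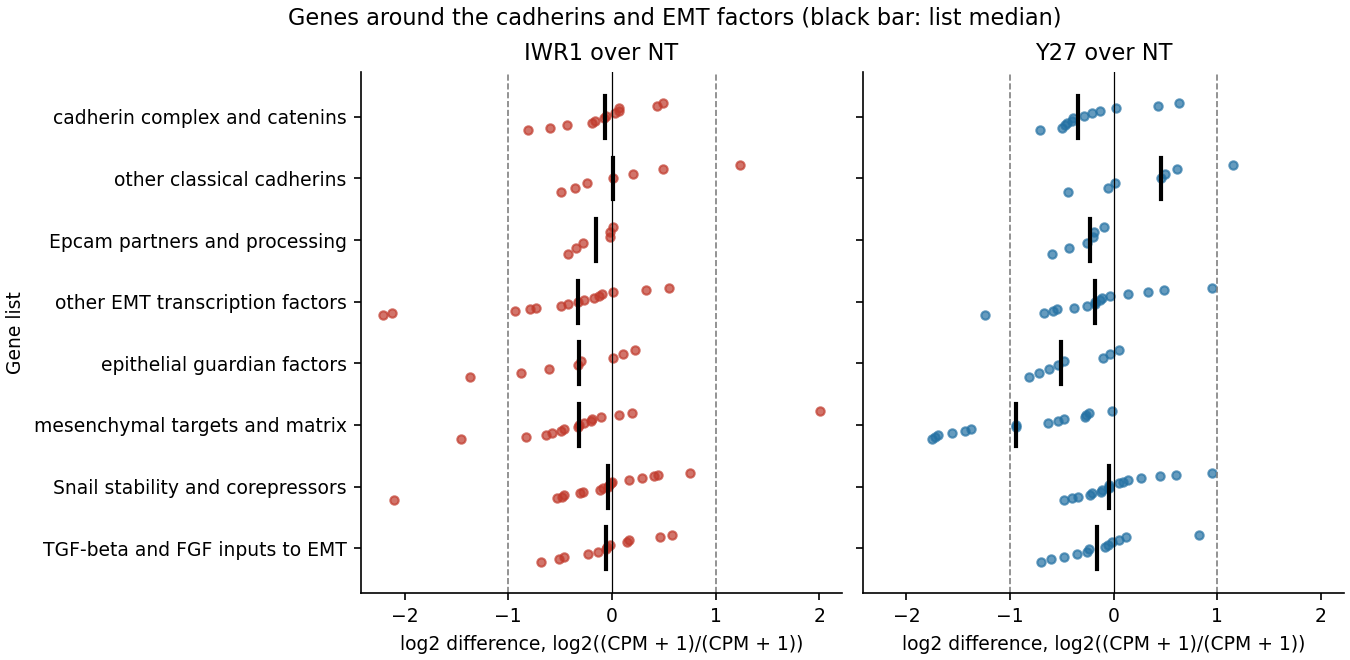
Log2 differences from NT of the 92 genes compared in 8 lists around the cadherins and EMT factors, for IWR1 (left) and Y27 (right), with a black bar at each list's median. Dashed lines mark 2-fold. The mesenchymal and matrix list lies lowest in Y27, with a median of -0.94, and T, Msx1 and Axin2 lie beyond -2 in IWR1.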

How the data were processed

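Tables of 3 RNA-seq libraries were used, 1 per group, as grouped by the labels. Per the file headers, every gene has an Entrez identifier, a length in bases, an expected count and an FPKM. The authors' expected counts, as deposited, are estimates of the reads of a gene, without normalization. The authors' FPKM values scale them by length and library total, and were within 2% of that calculation for 94.1%, 94.0% and 94.2% of genes over 50 counts in IWR1, Y27 and NT. The submitters' processing notes name Bowtie 0.12.2 and mm8. The sources used here do not name the tool that made the estimates. Symbols came from RefSeq on GRCm38.p6, for 99.7% of identifiers, and GC content from GENCODE transcripts, for 96.1% of genes compared and all 10 members.

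Levels in CPM used TMM factors (edgeR 4.0.16, R 4.3.3) of 0.998, 1.02 and 0.980 for IWR1, Y27 and NT, with a pseudocount of 1 CPM, a filter of a mean of 1 CPM and a 2-fold threshold. Counts were rounded for fold values and for exact Poisson and conditional binomial 95% intervals. A gene absent from a table was taken as 0. Named beside the members were genes of the lists past 2-fold with at least 5 CPM in the higher library, and Ctnna1, Ctnnb1, Ctnnd1, Jup, Vim and Fn1; 1 gene past 2-fold is counted but not reported here by name. The members, lists and settings were chosen with earlier results of these data known. The trend was fitted by a third-degree polynomial of log2 length and GC content together. Fold and interval steps were tested on simulated data. Other settings used DESeq2 1.42.0 size factors and scipy 1.17.1, numpy 2.4.6, matplotlib 3.10.9 and pandas 2.3.3 in Python 3.11.15.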

Additional observations from a re-analysis of the deposited data

How the results depend on the processing

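No paired analysis was possible because each group had 1 library. The number of the 10 genes past 2-fold was 2 in each comparison. With the length and GC trend removed it was 1 in IWR1 over NT, 0 in Y27 over NT and 1 in IWR1 over Y27, when of 12453 genes 1.13% passed 2-fold upwards and 2.19% downwards in IWR1 over NT, 1.20% and 1.35% in Y27 over NT, and 1.40% and 2.45% in IWR1 over Y27. A pseudocount of 0.1 CPM gave 4 in Y27 over NT and 4 in IWR1 over Y27, and one of 5 CPM gave 1 and 0. The deposited FPKM gave 1 in each of these, and so did the genes with whole counts. A threshold of 1.5-fold gave 4 and 7 there, and one of 3-fold gave 0 in all 3 comparisons. The share of all genes is not given for these other pseudocounts, thresholds, FPKM or whole counts. Those counts of the 10 genes therefore cannot be set against what all genes did. The median over the 10 genes in IWR1 over Y27, -0.34, was -0.10 with the trend removed and 0.33 over genes with whole counts. Other medians moved by at most 0.1. Of 264 values of single genes under other settings, 9 lost their 2-fold difference and 4 gained one, all 4 of them Snai2 or Twist1 with a pseudocount of 0.1 CPM. Of these values 7 changed sign, 6 with the trend removed and 1 with upper quartile scaling, each for a difference short of 2-fold. Depth limits Snai2 and Twist1, with 12.1 counts or fewer. The cause of the length and GC trend was not tested.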
